A study of Oryctolagus cuniculus with 6 samples.

Results

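Healing of a grafted bone defect in the rabbit skull was followed from day 3 to day 5 by comparing 1 array of each day, 2 of the 6 arrays of the series. Both samples were newly formed tissue from circular parietal defects, 5 mm wide, of male New Zealand White rabbits aged 4 months, grafted with 0.2 g of HPD. The series title gives HPD as human particulated dentin, the ground mineralised tissue of human teeth. The other arrays hold grafted tissue of day 7 and tissue of empty defects, which received no graft, on days 3, 5 and 7. Per the labels, 24 rabbits were operated on, grafted and empty defects lay in the same skulls, and nothing says how many animals gave the RNA of an array. Every group is therefore 1 sample, no p-value can be given, and results are folds and ranks. The day 3 arrays lay on slide 1 and those of days 5 and 7 on slide 2, so day and slide cannot be told apart.

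A defect in bone first fills with a blood clot. Neutrophils arrive first, with granule proteins that their precursors made earlier in the marrow, and macrophages follow. Fibroblast-like cells then lay down collagen, osteoblasts deposit the matrix that becomes bone, and osteoclasts resorb mineral, including that of a graft. In such bulk tissue, fewer cells of a type and less RNA per cell cannot be told apart.

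Each value is a log2 intensity relative to the 75th percentile of its own array, so that 0 is the level of that percentile and a difference of 1 is 2-fold. Of 43603 probes, 35235 were well above background on both grafted arrays and formed the comparison. Of these, 19732 carry a gene name, for 9101 named genes, and each gene is represented by its brightest probe. Before scaling, the 75th percentile was 458 intensity units on day 3 and 407 on day 5, with 86.4% and 81.5% of spots well above background and 0 saturated. The scanner software's own error gave a difference a median error of 0.21 (log2), and the differences of probes of the same gene had a pooled SD of 0.26. Smaller differences are called within the measurement error, a margin of 1 SD that unchanged genes can also exceed. Neither error includes the spread between animals. Of 4028 named genes with more than 1 probe in the comparison, 1277 had probes that disagreed in direction. All 5 osteoblast markers (RUNX2, SP7, IBSP, DMP1 and PHEX) and 4 of the 5 osteoclast markers named on the array were well above background on both days. Of the chondrocyte markers SOX9 was not on day 5, where its level was at least 1.90-fold lower than on day 3.

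The median named gene differed by -0.06 between day 5 and day 3. At least 2-fold higher on day 5 were 302 of 9101 named genes (3.32%), and 190 were at least 2-fold lower (2.09%). Of the 35235 probes, 1231 were higher (3.49%) and 1052 lower (2.99%). The 3 largest differences lay at the lower end, although past 3-fold 118 named genes were higher and only 49 lower. The lowest 3 genes, all of antimicrobial proteins from the granules of neutrophils and other phagocytes, fell 91.5-fold to 158-fold, while the highest, SLFN14, stood 29.7-fold higher. The split between higher and lower depends on the scaling. In place of 61.4% of the 2-fold genes being higher, the share was 74.8% with arrays shifted to their medians and 18.8% with arrays shifted to the spike-in controls, RNA of known amount added to each sample. The latter read 0.37 brighter on day 5 after scaling to the percentile, and 0.73 brighter on day 5 in empty defects. With this shift grafted differences from 0 to 0.37 and empty differences from 0 to 0.73 given here would change sign, and the median gap of grafted minus empty over 8974 genes, -0.06, would be 0.31. Of all named genes 56.5% had a difference below 0 and 94.6% lay within 2-fold, which is the share to hold beside the counts of signs and of 2-fold genes that follow.

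**Figure D1:**
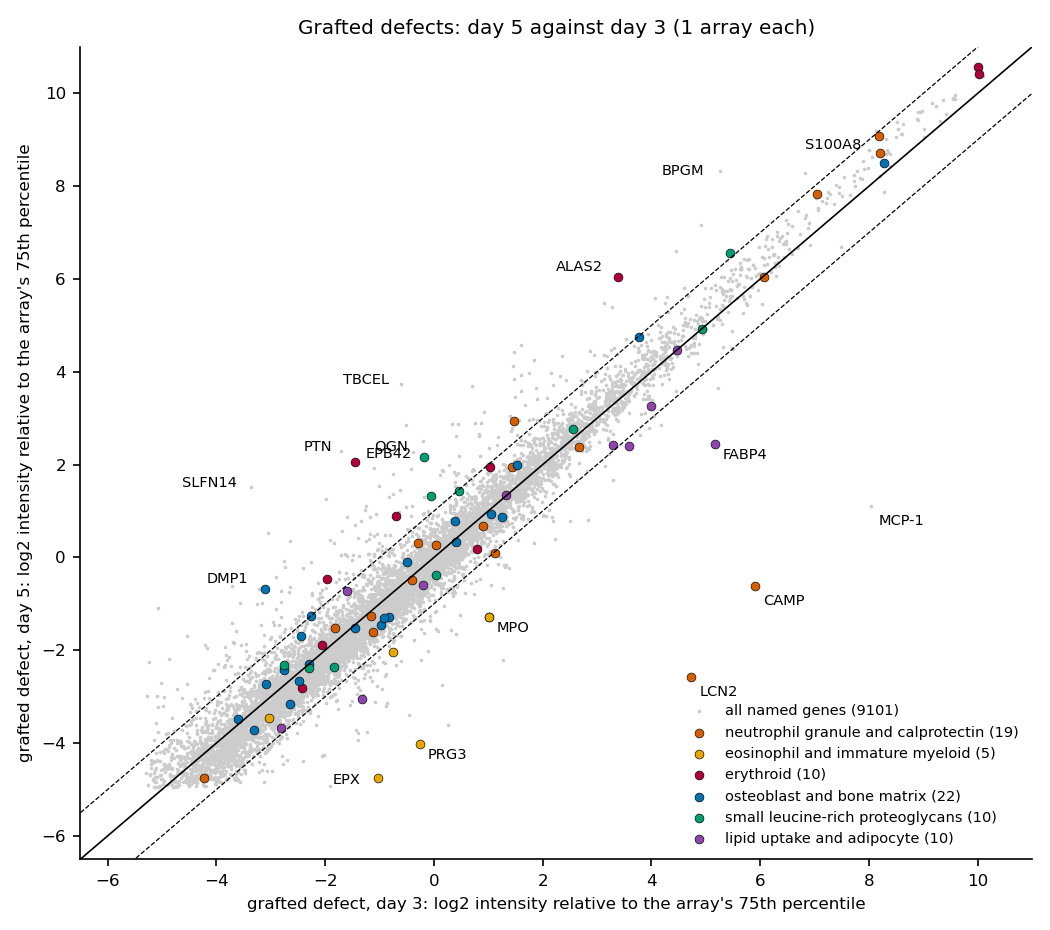
Log2 level of 9101 named genes in grafted tissue on day 3 (horizontal axis) and day 5 (vertical axis), 1 array each, with 6 gene lists in colour, the solid line at equality and dashed lines at 2-fold. Of the neutrophil list 4 of 19 genes lie under the lines, among them LCN2 (4.73 on day 3 and -2.57 on day 5). Of the red cell list 4 of 10 lie above them, among them ALAS2 and EPB42.

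LCN2, which encodes the neutrophil granule protein lipocalin-2, read 4.73, -2.57 and -0.15 in grafted tissue on days 3, 5 and 7, and 7.09, -2.59 and -2.78 in empty defects. It was high on both day 3 arrays and low on both day 5 arrays, and the difference of -7.30 in grafted tissue was the lowest of all named genes. MCP-1, here the rabbit macrophage cationic peptide, a defensin found in granules and not the chemokine of the same short name, read 8.03, 1.11 and 3.78 in grafted and 9.22, 1.46 and 2.95 in empty defects. Its 5 probes, which rabbit defensins of near-identical sequence could share, differed by -6.92 to -6.79. CAMP, the precursor of the antimicrobial peptide cathelicidin (chr9:16031753-16031812 on oryCun2, plus strand), read 5.90, -0.61 and 1.36 in grafted and 7.82, -0.55 and 0.37 in empty defects. In all 3 genes grafted tissue stood under empty tissue on day 3, and the gap between them was smaller on day 5.

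Eosinophil and immature myeloid genes were lower as well. EPX, eosinophil peroxidase, read -1.02, -4.76 and -3.91 in grafted and 2.41, -4.74 and -4.94 in empty defects. PRG3, a proteoglycan of eosinophil granules, read -0.26, -4.02 and -3.34 in grafted and 3.27, -4.87 and -4.48 in empty defects. MPO, the myeloperoxidase of neutrophil precursors, read 1.01, -1.29 and -0.82 in grafted tissue. On day 3 each of the 3 was lower in grafted than in empty tissue, and on day 5 EPX and PRG3 were close to background. The fall from day 3 to day 5 was 13.3-fold in grafted and 141-fold in empty defects for EPX, 13.5-fold and 283-fold for PRG3, and 4.92-fold and 52.3-fold for MPO. Of the 5 measured members of this list, which also holds MS4A3 of basophil and neutrophil precursors (-1.28, or -0.92 under normexp), 4 were at least 2-fold lower and 0 higher, with a median of -2.30 against -0.06 over all named genes. EPX and PRG3 are dim on day 5, and a different background correction (normexp) put their differences at -1.84 and -2.22.

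Most of the neutrophil list stayed within 2-fold. Of 19 measured members 4 were at least 2-fold lower (LCN2, CAMP, MPO and BPI), while MMP8, a collagenase of the granules, and OLFM4, another granule protein, differed by -0.09 and -0.52. BPI, a bactericidal protein of the granules, stood at -1.03. A single member, ALOX5AP, which activates leukotriene synthesis, was 2.77-fold higher, and the list's median was -0.09. S100A8, a subunit of calprotectin and abundant in the cytosol of neutrophils and monocytes, read 8.20, 8.72 and 4.92 in grafted and 9.40, 7.03 and 3.01 in empty defects. S100A9, the other subunit, read 7.04, 7.83 and 3.68 in grafted and 8.57, 6.35 and 2.32 in empty defects. S100A12, a related calcium-binding protein, read 8.19, 9.09 and 4.98 in grafted and 9.20, 7.93 and 3.56 in empty defects. All 3 stood under the empty defects on day 3 and above them on day 5, and they were lower on both day 7 arrays. The difference of S100A8 in grafted tissue, 0.51, was -0.02 after quantile normalization. Of the 19 members 15 had a higher difference in grafted than in empty tissue, where 10 were at least 2-fold lower.

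Among 20 measured inflammatory cytokines and chemokines 4 were at least 2-fold higher and 2 lower, with a median of -0.20. IL1B, interleukin-1 beta, read 4.29, 5.62 and 2.17 in grafted and 4.08, 3.91 and 1.22 in empty defects, so the grafted array of day 5 was the brightest of the 6. The chemokine genes CCL2 and CCL4, which attract monocytes, both differed by 1.01 in grafted tissue, against -0.36 and -0.82 in empty tissue. IL19, of the interleukin-10 family, was 6.46-fold higher, from -4.88 to -2.18, though close to background on day 3, and normexp put its difference at 1.23 in place of 2.69. CXCL8, a neutrophil attractant, read 4.25, 4.44 and 1.24 in grafted and 3.41, 1.31 and -0.68 in empty defects, a difference of 0.19 that lies within the measurement error. IL6 was 2.80-fold lower and IL10, an anti-inflammatory cytokine, 3.15-fold lower (-0.60 for IL10 under normexp). TNF at -0.86 and the prostaglandin synthase gene PTGS2 at -0.77 did not reach 2-fold. Of 17 measured cytokine and chemokine receptors 0 reached 2-fold in either direction.

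Of 17 measured macrophage genes 16 had a difference under 0, at a median of -0.58, but only 1 was at least 2-fold lower and 1 higher. MARCO, a scavenger receptor, read 1.30, -0.18 and -2.27 in grafted and 1.30, -1.23 and -2.37 in empty defects, a 2.79-fold fall in grafted tissue. CLEC7A, the receptor for fungal glucan, was the exception at 2.14-fold higher (0.99 under normexp). CD14 and CD68 differed by -0.32 and -0.34 and CSF1R, the receptor of the macrophage growth factor, by -0.75. The summed linear level of the 4 macrophage markers (CD14, CD68, CSF1R and MSR1) was 35.3 on day 3 and 27.7 on day 5 in grafted, and 22.3 and 13.7 in empty defects. Genes of lipid uptake were lower too, with 3 of 10 at least 2-fold lower, 0 higher and a median of -0.80. FABP4, a fatty acid carrier of adipocytes and macrophages, read 5.16, 2.44 and 3.02 in grafted and 5.68, 3.18 and 2.89 in empty defects. PPARG, the receptor that drives its transcription, and LPL, lipoprotein lipase, were 3.35-fold and 2.30-fold lower, against 4.32-fold and 2.28-fold in empty defects. Lymphocyte genes had a median of -0.33, with PRF1, the perforin of cytotoxic cells, 2.16-fold lower (-0.57 under normexp) and 17 of 18 within 2-fold.

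The genes highest on day 5 relative to day 3 included several known from maturing red cells. EPB42, a structural protein of the red cell membrane (chr17:29079788-29079847, plus strand), read -1.45, 2.06 and 0.52 in grafted and 0.66, 1.21 and 0.50 in empty defects. Its day 3 level was the lowest of the 6 and its day 5 level the highest, an 11.4-fold difference against 1.46-fold in empty defects. ALAS2, the first enzyme of haem synthesis in red cell precursors, read 3.39, 6.03 and 4.73 in grafted and 5.14, 5.53 and 4.91 in empty defects. BPGM, which makes the phosphoglycerate that lowers the oxygen affinity of haemoglobin, read 5.27, 8.33 and 6.96 in grafted and 6.42, 7.64 and 6.83 in empty defects. SLFN14, a ribonuclease of the schlafen family known from platelet and red cell precursors, read -3.37, 1.52 and -0.57 in grafted and -0.94, 0.67 and -0.77 in empty defects, and all 5 of its probes differed by 4.70 to 4.89. In these 4 genes the array labelled HPD day 3 was the lowest of the 6 and HPD day 5 the highest.

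Of the 10 measured members of the erythroid list 4 were at least 2-fold higher and 0 lower, with a median of 0.74 against -0.75 in empty defects. TMOD1, which caps actin filaments in the red cell skeleton, read -1.97, -0.47 and -1.79 in grafted tissue and was 4.21-fold lower on day 5 in empty tissue. Its difference thus ran opposite ways in grafted and empty tissue. The globin genes HBA and HBB, near the top of the range with levels over 10 on both days, differed by 0.56 and 0.39, and the 7 probes of HBA ranged from -0.56 to 1.75. TFRC, the transferrin receptor of early precursors, and SLC4A1, the red cell anion exchanger, differed by -0.61 and -0.41. CA2, a carbonic anhydrase of red cells and osteoclasts, read 2.35, 4.34 and 3.37 in grafted and 4.45, 3.45 and 3.05 in empty defects. The summed linear level of 3 red cell lineage markers (ALAS2, SLC4A1 and RHAG) was 10.9, 65.9 and 26.9 in grafted and 37.3, 46.5 and 30.3 in empty tissue on days 3, 5 and 7. ALAS2 alone gave nearly all of each sum, and RHAG differed by only 0.17 in grafted tissue, so the sum does not show all 3 markers rising. The design text names blood as well as bone tissue as sampled. How far blood in the samples contributed was not tested.

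**Figure D2:**
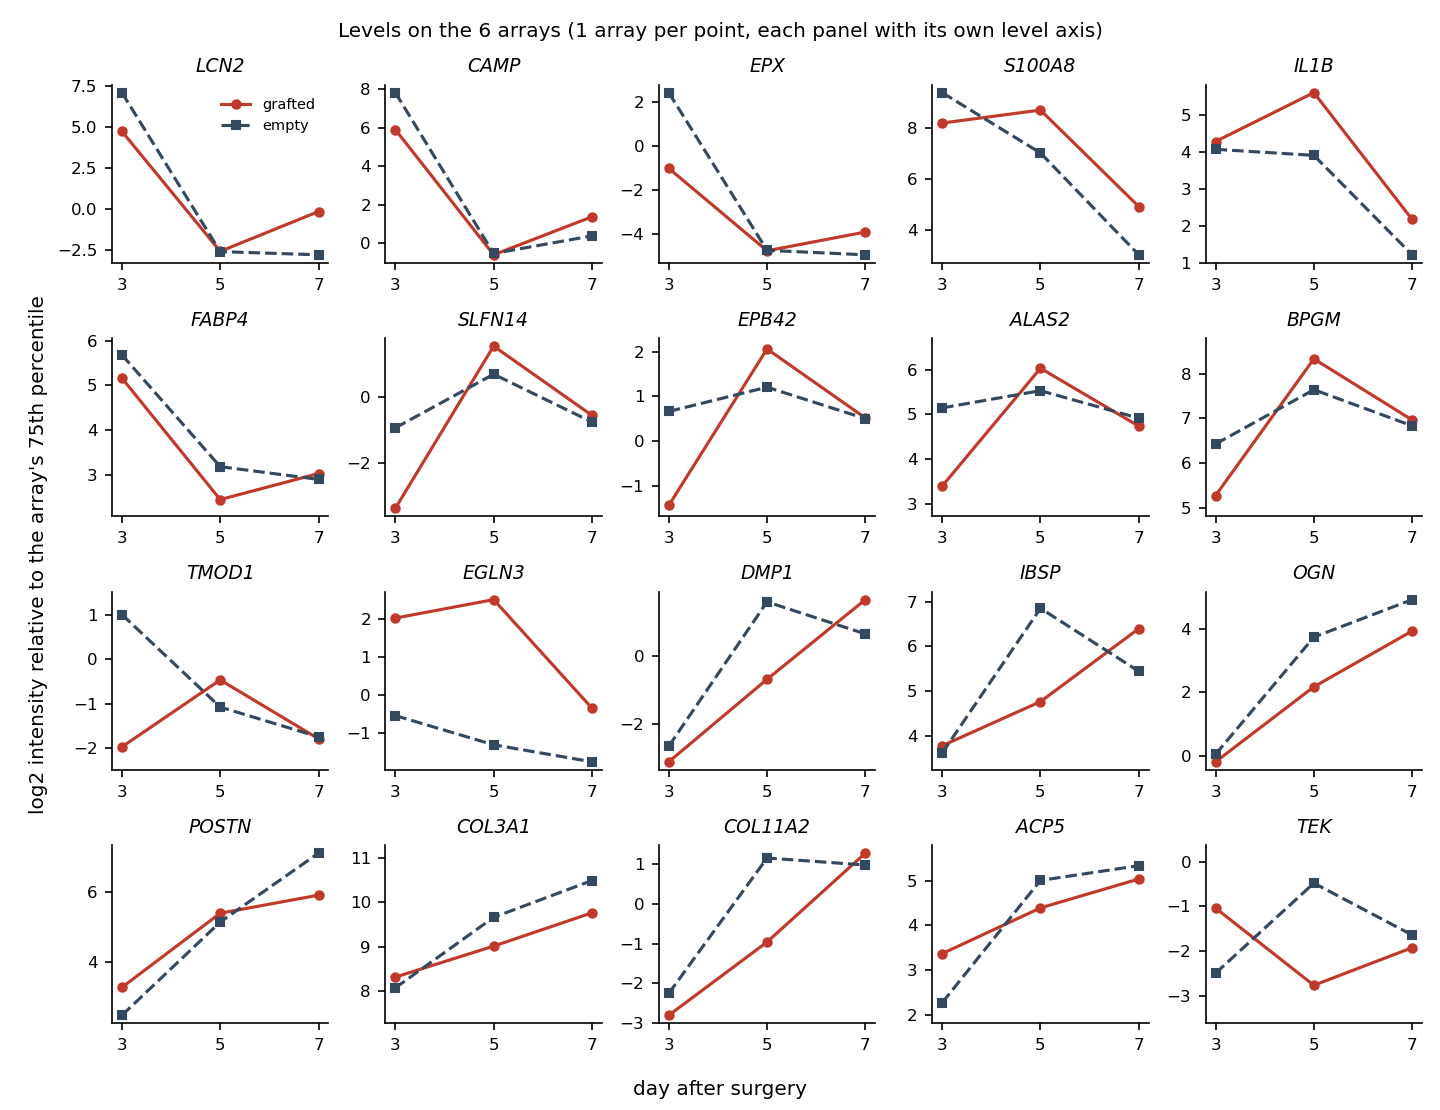
Log2 level of 20 named genes by day after surgery in grafted (red circles) and empty (dark squares) defects, 1 array per point and no error bar because no group has a replicate. LCN2, CAMP and EPX drop from day 3 to day 5 in both, EPB42, ALAS2, BPGM and SLFN14 go from the lowest to the highest of the 6 arrays in grafted tissue, and DMP1, IBSP and COL11A2 climb later with the graft than without it.

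The other genes of the 15 highest that were named belong to several functions. TBCEL, a tubulin-binding protein, stood 20.1-fold higher, from -0.60 to 3.73, and 3.55-fold higher in empty defects. MARCHF8, a membrane-bound ubiquitin ligase, was 10.3-fold higher, BNIP3L, which directs mitochondria to autophagy and does so in reticulocytes, 7.89-fold, and DCUN1D1, a regulator of cullin ligases, 7.70-fold. All 4 were lower again on day 7, with differences from day 5 of -1.18 to -1.63. PTN, pleiotrophin, a secreted growth factor of developing cartilage and bone, read -1.71, 2.29 and 1.82 in grafted and -1.90, 2.11 and 2.45 in empty defects, so the 16.0-fold rise was shared. DDIT4L, an inhibitor of mTOR signalling, was also alike, at 6.58-fold in grafted and 6.13-fold in empty tissue. CES1, a carboxylesterase, was 8.17-fold higher in grafted and 1.06-fold lower in empty tissue. TMEM62 stood 9.46-fold higher. SLC4A9, a bicarbonate transporter, and ZNF383 were dim on day 3 and are less certain, at 1.95 and 1.90 under normexp in place of 3.98 and 3.11. GHITM, a protein of the inner mitochondrial membrane, was 8.03-fold higher by its brightest probe, but its 7 probes ranged from 0.11 to 3.00.

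Of 9 measured interferon response genes 3 were at least 2-fold higher and 0 lower, with a median of 0.41 against -0.07 in empty defects. IFIT3, an antiviral protein induced by interferon, read -3.04, 0.53 and -1.33 in grafted and -1.94, -0.60 and -1.54 in empty defects, from a single probe. IRF7, which drives type I interferon genes, was 2.61-fold higher, and DDX58, a sensor of viral RNA, 2.05-fold (0.95 under normexp). OASL, another interferon-induced antiviral protein, differed by -0.06, within the measurement error.

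Of 19 genes of fibrillar collagen and its assembly 14 had a difference above 0, most by less than 2-fold. COL1A2, a chain of type I collagen, the main protein of bone, read 8.54, 9.24 and 10.15 in grafted and 8.77, 9.79 and 9.86 in empty defects. COL3A1, the collagen of granulation tissue, read 8.32, 9.01 and 9.76 in grafted and 8.08, 9.66 and 10.48 in empty defects. The only probe of COL1A1, the other type I chain, read 4.27, 4.04 and 6.48 in grafted tissue, a difference of -0.23 against 0.69 for COL1A2. After quantile normalization the differences of COL1A2 and COL3A1, 0.69 each, were 0.14 and 0.18, within the measurement error. SERPINH1, the collagen chaperone, was 2.15-fold higher and the only 1 of the 19 past 2-fold, a call lost after quantile normalization (0.94) and with its 2 probes averaged (0.80). The list had a median of 0.24 (0.91 in empty defects), and in 17 of 19 the difference was lower in grafted tissue. With the spike-in shift its medians were -0.13 and 0.18, with 12 of 19 lower in grafted tissue. Over all genes measured in both, 4038 of 8974 had a higher difference in grafted tissue, and 6635 with the spike-in shift.

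Outside that list, COL11A2, a chain of the cartilage collagen type XI that osteoblasts also make, read -2.81, -0.96 and 1.28 in grafted and -2.26, 1.16 and 0.98 in empty defects, 3.60-fold and 10.7-fold higher on day 5. Probes of this array are 60 bases long, and 3 of the 64 collagen probes in the comparison lie wholly in the coding part for the triple helix, where a glycine codon recurs at a fixed step, with a pair of other codons between. They are shown because the repeat identifies the messages they read as collagen. The glycine codons are in capitals, and the sequences are those of the array file, written 5′ to 3′ in the sense direction.
COL11A2: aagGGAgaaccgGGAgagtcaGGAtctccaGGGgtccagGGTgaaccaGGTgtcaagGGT
COL9A2: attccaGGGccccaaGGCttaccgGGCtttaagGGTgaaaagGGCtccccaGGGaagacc
COL23A1: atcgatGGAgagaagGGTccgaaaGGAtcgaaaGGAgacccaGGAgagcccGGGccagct
The first holds 7 such codons and the others 6 each. Per the array file they lie at chr12:23597099-23597595 (minus strand), chr13:126196204-126196440 (plus) and chr3:58339259-58339844 (minus) of oryCun2, intervals wider than the probes. Against the 1.85 of COL11A2, the probe of COL9A2, a cartilage collagen, differed by 0.06 and that of COL23A1, a membrane collagen, by 0.12, both within the measurement error.

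Small leucine-rich proteoglycans, which bind collagen fibrils and regulate their width, were at least 2-fold higher in 3 of 10 measured members and lower in 0, with a median of 0.33 against 1.37 in empty defects. OGN, osteoglycin (chr1:70251590-70251649, minus strand), read -0.19, 2.17 and 3.92 in grafted and 0.05, 3.73 and 4.91 in empty defects. Its 5 probes ranged from 0.55 to 2.95. OMD, osteomodulin, which binds hydroxyapatite, read -0.05, 1.33 and 3.79 in grafted and 0.56, 3.52 and 3.04 in empty defects. LUM, lumican, read 5.45, 6.57 and 7.19 in grafted and 5.19, 7.23 and 8.07 in empty defects. LUM was 0.80 above day 3 after quantile normalization. In each the order of the days was the same in grafted tissue, lowest on day 3 and highest on day 7, and the day 5 level was lower than in empty defects. POSTN, periostin of the periosteum and of wound matrix, read 3.28, 5.39 and 5.91 in grafted and 2.49, 5.14 and 7.10 in empty defects. DPT, dermatopontin, was 5.50-fold higher in grafted tissue and 1.08-fold in empty tissue. It read -1.60, 0.86 and -0.06 in grafted and -0.61, -0.50 and 2.79 in empty defects, so empty tissue of day 7 was the highest of the 6. THBS1, the thrombospondin of platelets and provisional matrix, was 2.22-fold lower (-0.96 with its probes averaged).

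Of 22 measured genes of osteoblasts and bone matrix 11 had a difference above 0 and 11 below. DMP1, a mineral-nucleating protein of late osteoblasts and osteocytes, read -3.10, -0.68 and 1.65 in grafted and -2.65, 1.59 and 0.65 in empty defects, 5.36-fold and 18.8-fold higher on day 5. IBSP, bone sialoprotein (chr15:62360093-62360152, minus strand), read 3.77, 4.76 and 6.40 in grafted and 3.61, 6.85 and 5.44 in empty defects, a difference of 0.99 against 3.25. PHEX, an endopeptidase of osteocytes, differed by 0.75 in grafted and 2.43 in empty tissue. MEPE, another matrix protein of osteocytes, differed by 0.33 in grafted and -3.36 in empty tissue. SPP1, osteopontin, was high throughout at 8.28, 8.51 and 8.16 in grafted tissue. The transcription factors that commit cells to bone were not higher. RUNX2 read -0.98, -1.46 and -0.59 in grafted and -1.70, -0.76 and -1.17 in empty defects, and SP7 differed by -0.38. Of the 22 members 2 were at least 2-fold higher, DMP1 and the RANKL decoy receptor TNFRSF11B (0.74 under normexp), and 0 lower, with a median of 0.06 (0.71 in empty defects, where 7 were higher and 2 lower). The summed linear level of the 5 osteoblast markers was 16.8, 30.2 and 92.2 in grafted and 15.1, 122 and 48.4 in empty tissue on days 3, 5 and 7. IBSP alone gave most of each sum, so the sums mainly repeat its levels and do not show all 5 markers rising.

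On day 3, 12 of 13 measured osteoclast genes were higher in grafted than in empty tissue, as were 5505 of 9101 named genes, and CA2 was lower. ACP5, the tartrate-resistant acid phosphatase that marks osteoclasts, read 3.37, 4.39 and 5.04 in grafted and 2.27, 5.01 and 5.34 in empty defects. CTSK, cathepsin K, which cuts bone collagen, read 6.35, 6.28 and 6.15 in grafted and 5.13, 6.01 and 6.30 in empty defects. ATP6V0D2, a subunit of the proton pump, read 2.98, 3.25 and 4.19 in grafted and 1.24, 3.34 and 3.71 in empty defects. In all 3 the gap between grafted and empty tissue was smaller on day 5. Of the 13 measured members 2 were at least 2-fold higher, ACP5 (0.80 after quantile normalization) and CA2, and in 12 the difference was lower in grafted tissue (11 with the spike-in shift). The ligand gene TNFSF11 (RANKL), dim on all arrays, differed by -0.89. MMP9 at -0.02 and MMP13 at 0.23, collagenolytic enzymes of osteoclasts and of bone and cartilage, did not differ beyond the measurement error, against 1.29 and 1.03 in empty defects.

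**Figure D3:**
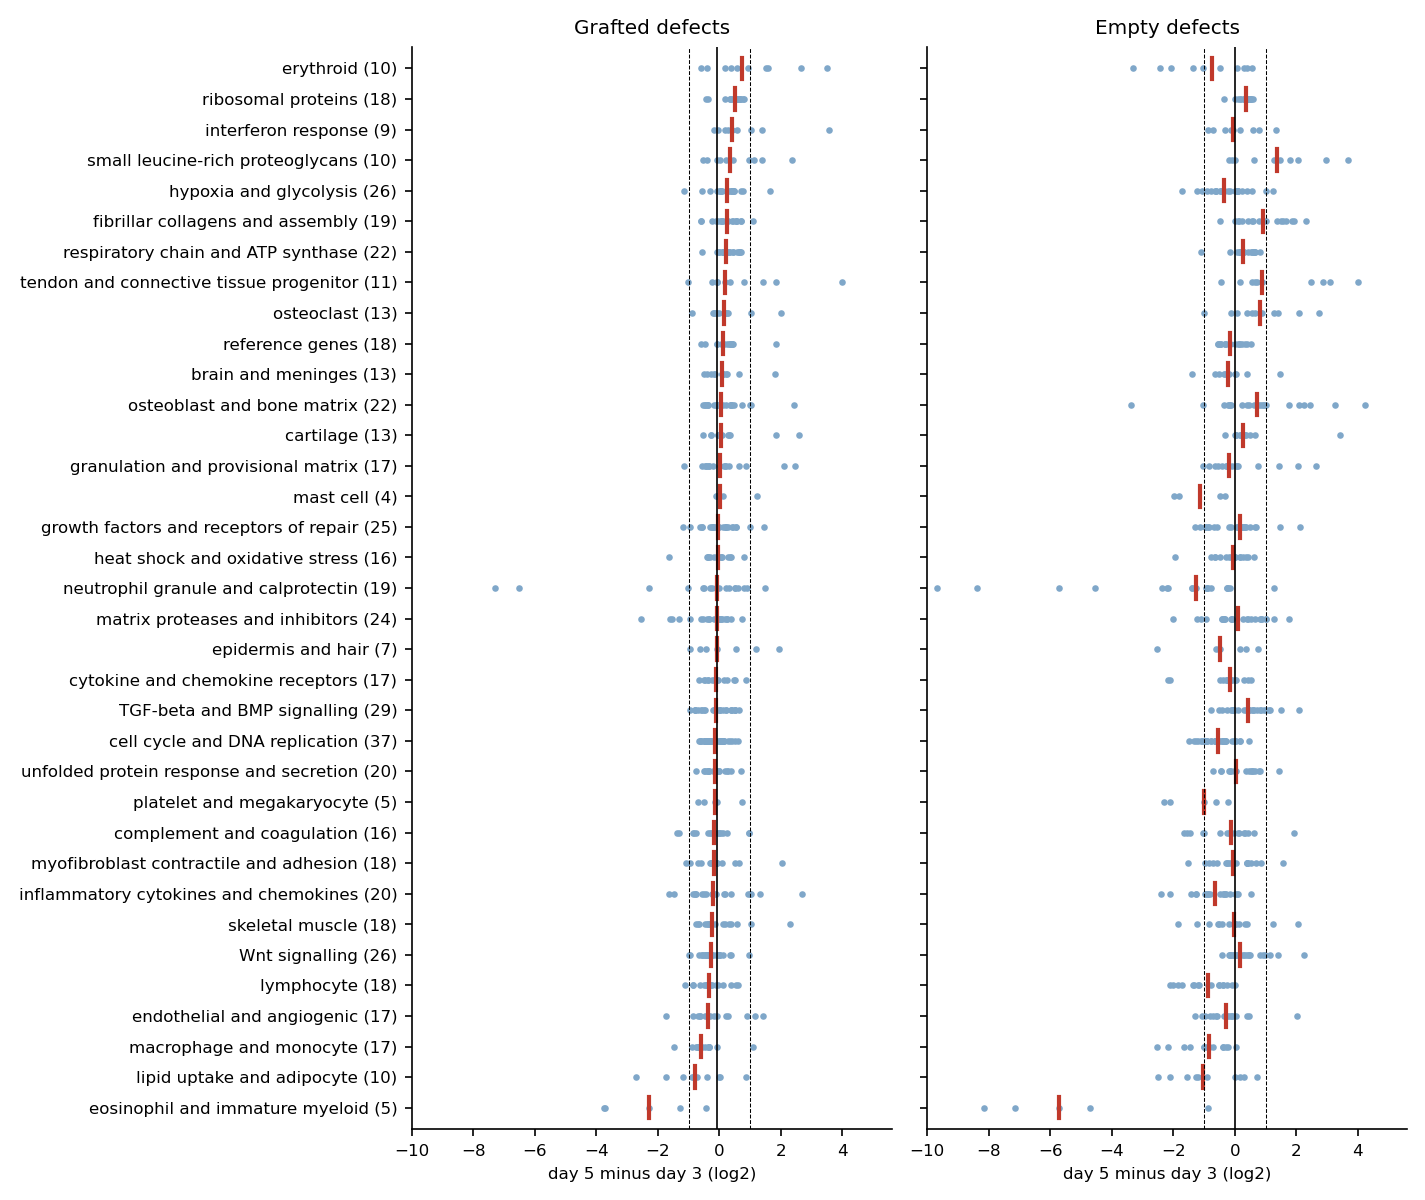
Day 5 minus day 3 (log2) of each measured member (dots) of 35 gene lists with at least 4 members, in grafted (left) and empty (right) defects, with the list's median in red, the median of all named genes as a solid line and dashed lines at 2-fold. Numbers of members are in parentheses. In grafted tissue the eosinophil median of -2.30 is the lowest and the erythroid median of 0.74 the highest, and the medians of collagen, proteoglycan, bone and osteoclast lists lie closer to 0 than in empty defects, which with the spike-in shift does not hold for bone (-0.30 and -0.02) and osteoclasts (-0.23 and 0.09).

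Cartilage genes held 2 of 13 past 2-fold, COL11A2 and SOX6, a transcription factor of chondrocytes that red cell precursors also use, which was 6.07-fold higher in grafted and 1.26-fold in empty tissue. COL2A1, the main cartilage collagen, differed by 0.10. Among matrix proteases and inhibitors 4 of 24 were at least 2-fold lower and 0 higher. ADAM19, a membrane-bound protease, was 5.81-fold lower (-1.16 in place of -2.54 under normexp), MMP14, which activates gelatinase A at the cell surface, 3.06-fold, TIMP4, an inhibitor, 2.89-fold (-0.86 under normexp) and MMP19 2.47-fold. MMP14 read -0.70, -2.31 and -1.91 in grafted and -2.16, -2.23 and -2.16 in empty defects, so its fall came from a higher day 3 level. Contractile genes had a median of -0.19. ACTA2, the smooth muscle actin of myofibroblasts and vessel walls, read -1.18, 0.86 and 1.09 in grafted and -0.02, 0.40 and 2.37 in empty defects, while DES, desmin, was 2.13-fold lower (-0.96 under normexp) and PDGFRB, the receptor of pericytes, differed by -0.95.

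Of 29 TGF-beta and BMP genes 0 reached 2-fold, with the median at -0.12 against 0.42 in empty defects and a lower difference in grafted tissue in 26 of 29 (20 with the spike-in shift). BMP2, a bone-inducing ligand, read 2.19, 1.39 and 1.43 in grafted and 1.24, 1.69 and 1.02 in empty defects, TGFB1 differed by -0.69 and INHBA, an activin subunit, by -0.95. Of 26 Wnt genes 0 reached 2-fold either, with 20 under 0, a median of -0.28 (-0.06 under normexp) and a lower difference in 22 of 26 (18 with the spike-in shift). The receptor ROR2 differed by -0.99 and SFRP2, a secreted Wnt modulator, by 0.96. Among 25 growth factors and receptors of repair PDGFD was 2.70-fold higher, IGFBP6 2.01-fold higher (0.83 after quantile normalization) and JAG1, a Notch ligand, 2.29-fold lower. In the list of tendon and connective tissue progenitors 3 of 11 were at least 2-fold higher (PTN, LIX1 and ITM2A) and 1 lower, EBF2 at -1.04. Under normexp LIX1 stood at 0.65 in place of 1.85 and EBF2 at -0.29. Of these, ITM2A, a membrane protein of developing skeletal tissue, was 2.70-fold higher in grafted and 7.36-fold in empty tissue.

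TEK, the endothelial receptor of angiopoietins (chr1:26310310-26310369, minus strand), read -1.04, -2.77 and -1.92 in grafted and -2.50, -0.48 and -1.64 in empty defects, 3.32-fold lower against 4.05-fold higher by its only probe in the comparison. PECAM1 and TEK, the only 2 of 5 endothelial markers that the array names, summed to 1.07 on day 3 and 0.587 on day 5. Of 17 endothelial and angiogenic genes it was the only 1 at least 2-fold lower. LYVE1, of lymphatic endothelium, and ESAM, a junction protein, were 2.69-fold and 2.21-fold higher, although the 2 probes of LYVE1 disagreed, at -1.13 and 1.43, and ESAM stood at 0.99 under normexp. PECAM1 differed by -0.40 and VWF by -0.70. THBD, thrombomodulin, and TFPI, both inhibitors of clotting, were 2.63-fold and 2.51-fold lower, the only 2 of 16 complement and coagulation genes past 2-fold, TFPI at 0.12 in empty defects.

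Of 26 genes of hypoxia and glycolysis 22 had a difference above 0, but the median of 0.25 (-0.34 in empty defects) was -0.11 with the spike-in shift. The measurement error is that of a single gene and was not worked out for a list's median. Only MXI1, a repressor of MYC targets that hypoxia induces, was at least 2-fold higher (3.10-fold), and HK2, hexokinase 2, was 2.24-fold lower (-0.56 under normexp). EGLN3, a prolyl hydroxylase induced by hypoxia, read 2.03, 2.51 and -0.35 in grafted and -0.54, -1.31 and -1.76 in empty defects. Ribosomal protein genes were above 0 in 16 of 18, at a median of 0.52, and respiratory chain genes in 18 of 22, at 0.22, but quantile normalization put these medians at 0.04 and -0.06. Of 37 cell cycle genes 0 reached 2-fold, with a median of -0.13 (-0.54 in empty defects) and a higher difference in grafted tissue in 31. MKI67, the proliferation marker, read 3.17, 3.29 and 2.96 in grafted and 3.51, 3.10 and 2.96 in empty defects. HMOX1, haem oxygenase, which breaks down haem, was 3.14-fold lower in grafted and 3.86-fold in empty tissue, and the only 1 of 16 heat shock and oxidative stress genes past 2-fold. The reference genes ACTB and GAPDH differed by 0.14 and 0.25, and by -0.33 and -0.20 after quantile normalization. Of 18 reference genes 1 was past 2-fold, and of 20 genes of the unfolded protein response 0 were, with a median of -0.14. Among genes of provisional matrix, 2 of 17 were at least 2-fold higher, POSTN and DPT, and THBS1 was lower. Of 5 platelet genes 0 passed 2-fold, and of 4 mast cell genes HPGDS, a prostaglandin synthase, stood at 1.21 by its brightest probe, but its 3 probes disagreed (-0.57 to 1.21) and averaged 0.27.

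The other genes of the 15 lowest that were named were lower in empty defects as well, where measured there. FOXN4, a forkhead transcription factor of retina and spinal cord, read 0.25 on day 3 and -3.62 on day 5 in grafted tissue, rose by 4.62 to day 7, and read 0.27, -3.55 and 0.67 in empty defects, low on both day 5 arrays and high on the other 4. OTUD6A, a deubiquitinase, was 11.2-fold lower against 16.9-fold, NT5DC3 7.45-fold against 8.80-fold and KCNH2, a potassium channel, 5.00-fold against 5.62-fold. HSPA12B was 4.20-fold lower against 17.6-fold. The probes of KCNH2 ranged from -2.32 to -0.50 and those of HSPA12B from -2.07 to -0.11, with averages of -1.10 and -1.09. GAS7 read -0.45 on day 3 and -3.41 on day 5 in grafted tissue, a difference of -2.95 that was -1.59 under normexp, and was not well above background on the empty day 5 array. CP, ceruloplasmin, a copper-carrying ferroxidase, was 4.05-fold lower against 1.92-fold, and TEX26 4.80-fold against 1.47-fold, with a second probe of TEX26 at -0.61.

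Genes well above background on only 1 of the 2 days have a bound in place of a fold. For it, the dim array was taken at its lowest signal called above background, or at what the probe itself read if that was higher. Only genes with a bound above 0 were counted. Of 50 above background on day 5 only, 28 were at least 2-fold higher, and of 278 above it on day 3 only, 33 were at least 2-fold lower. The lowest signal called above background was -5.39 on day 3 and -4.98 on day 5, with 86.4% and 81.5% of spots passing, so the 2 counts are not on a like footing. PDCL2, a testis protein, was at least 25.8-fold higher (from -6.25 to -0.70) and ZNF408, a zinc finger protein, at least 9.13-fold higher. RCVRN, TANC2 and AVIL followed at 8.74-fold, 7.96-fold and 7.14-fold. On the other side, OR5I1, an olfactory receptor, was at least 20.3-fold lower (from -0.63 to -7.26), followed by AFF2 (6.86-fold), AK9 (5.38-fold), HSPA12A (5.02-fold) and SYT1 (4.72-fold). Genes of other tissues passed 2-fold upward in 2 of 18 for skeletal muscle (MYH3 and MYH7), 1 of 13 for brain (S100B) and 2 of 7 for epidermis (KRT10 and TP63), and 0 were lower. Under normexp MYH7 (0.71), S100B (0.81) and KRT10 (0.55) were within 2-fold. MYH3, the embryonic muscle myosin, was 4.92-fold higher, while the muscle markers ACTA1 and CKM differed by 0.10 and -0.76. CKM was dim on both days and stood at 0.015 under normexp. The brain marker GFAP differed by -0.14. TP63, of epidermis, was 3.79-fold higher, while KLK4, of forming enamel, 1 of only 2 tooth genes measured, was 2.06-fold lower (-0.93 under normexp).

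The interval of day 3 to day 5 in empty defects, measured on 2 other arrays of the same slides, was set beside these values. There 444 of 9192 named genes were at least 2-fold higher (4.83%) and 504 lower (5.48%). Across 8974 genes measured in both, which are not independent replicates, the differences correlated at r = 0.42 (Spearman 0.39), and 64.4% had the same sign. Of 295 genes at least 2-fold higher in grafted tissue 68 were also higher in empty tissue, which is 23.1% of the grafted and 16.0% of the 426 empty genes. Of 183 lower genes 82 were shared, 44.8% of the grafted and 16.8% of the 489 empty genes. In 13 genes, of the 295 higher with the graft and 489 lower without it, a 2-fold rise stood against a 2-fold fall. In 4, of 183 lower and 426 higher, the reverse held. Over all 8974 genes 3192 had differences of opposite sign. Unrelated lists of these sizes would also have some genes in common, so the 13 and 4 are not read as a result. None of these differences between grafted and empty tissue could be tested with 1 array per group.

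**Figure D4:**
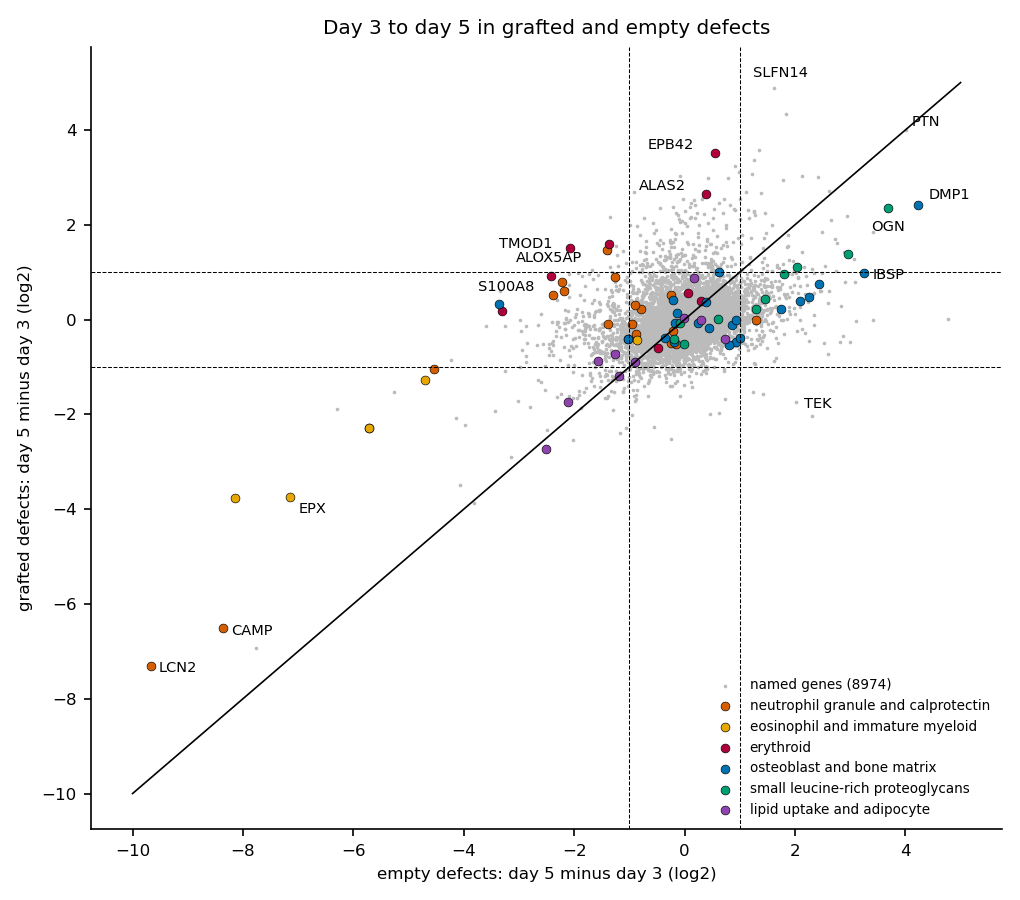
Day 5 minus day 3 (log2) of 8974 named genes in empty (horizontal axis) and grafted (vertical axis) defects, with 6 gene lists in colour, the solid line at equality and dashed lines at 2-fold. LCN2 (-9.67 and -7.30), CAMP and EPX lie far down in both, 9 of 10 red cell genes lie above the line of equality, and DMP1, IBSP and OGN lie to its right.

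From day 5 to day 7 of grafted tissue, 293 of 8803 named genes were at least 2-fold higher (3.33%) and 347 lower (3.94%). These values share the day 5 array and are given side by side only. Genes chosen as high or low on that array tend to move back on another array by the choice alone. Of the 302 higher genes 284 were measured on day 7, with medians of 1.40 for day 5 minus day 3, -0.99 for day 7 minus day 5 and 0.58 for day 7 minus day 3. Of the 190 lower genes 173 were measured, with medians of -1.23, 0.35 and -0.97 in the same order. Of the 284 genes 239 were below their day 5 level on day 7, whereas of all 8772 named genes measured on days 3, 5 and 7, 4807 were above it. Matrix and bone genes went both ways. Among the 45 others of the 284 were DMP1 at 2.34, COL11A2 at 2.24, OMD at 2.45 and OGN at 1.75 from day 5 to day 7. Among those below were DPT at -0.93, SOX6 at -0.72, PTN at -0.46 and TNFRSF11B at -0.37.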

How the data were processed

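Each deposited value is the linear intensity of a spot. Per the file headers, the authors extracted it with Agilent Feature Extraction (version 10.5.1.1) on a rabbit array designed on oryCun2, with background subtraction, spatial and multiplicative detrending, and no step between arrays. Per the labels' protocols, amplified RNA carried the dye Cy3. Flag columns, deposited in the same files, gave outlier and background calls. Here, control and outlier spots were left out, repeated spots averaged, and log2 intensity minus each array's 75th percentile was compared (Python 3.11.15, pandas 2.3.3; limma 3.58.1 for quantile and normexp alternatives). Names came from the files, RefSeq tables and a hand list of old names. The number of arrays limits the precision. Members and lists were chosen with earlier results of these data known. Named were the 15 highest and 15 lowest genes whose brighter signal reached the median and whose probes agreed in direction, up to 4 members of each of 36 lists, and a fixed set of bone and inflammation genes, of which VEGFA and CD163 are not named on the array. Other genes were named as examples after their values were seen. Some items are not reported here. Counting was tested on simulated data.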

Additional observations from a re-analysis of the deposited data

Results flagged for a closer look

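TMOD1, ALOX5AP and TEK are 3 of the genes whose difference between day 5 and day 3 passed 2-fold in opposite directions with and without the graft. TMOD1 was 2.83-fold higher in grafted and 4.21-fold lower in empty defects, 3.58 apart (log2). ALOX5AP stood at 1.47 and -1.40, 2.87 apart. TEK stood at -1.73 and 2.02, which is -3.75 for grafted minus empty. Each rests on 1 array per treatment and day, and the difference was not tested. Unrelated changes in grafted and empty tissue would also give some genes of this kind. TMOD1 and TEK have 1 probe each in the comparison, while the 5 probes of ALOX5AP ranged from 1.45 to 1.52.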

How the results depend on the processing

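With 1 array per group no animal-to-animal error can be given, and no replicate could be left out. No paired analysis was possible because each group has 1 array and the labels carry no replicate numbers. Low signals limit the precision of dim genes, and day and slide cannot be told apart. The SD of differences among probes of one gene, 0.26, served as the margin for a moved value. With normexp, 713 probes and 175 named genes were at least 2-fold higher and 418 and 78 lower, in place of 1231, 302, 1052 and 190, and the eosinophil and lipid medians were -1.84 and -0.52. Among dim genes it put SLFN14 at 3.77, IFIT3 at 2.61, DMP1 at 1.63, SOX6 at 1.58, MYH3 at 1.35, TP63 at 1.32, COL11A2 at 1.26, PPARG at -1.06 and FOXN4 at -2.49. Quantile normalization moved the medians of respiratory chain (-0.059), provisional matrix (-0.25) and ribosomal genes (0.043). Without a filter on dim probes 2590 probes and 382 genes were lower. With only the brighter probes 549 probes and 118 genes were lower, and medians were -3.02 (eosinophil), 1.21 (erythroid), 0.80 (interferon), 0.97 (proteoglycans), 0.33 (cartilage), 0.10 (muscle) and -0.64 (epidermis). At 1.5-fold, 3367 probes and 789 genes were higher and 3748 and 818 lower, and 34.1% of the higher genes were shared with empty defects. At 3-fold, 481 and 118 were higher and 369 and 49 lower, and 15.04% of higher and 56.5% of lower genes were shared. Shifting arrays to the spike-in controls, chosen after seeing the data, lowers every grafted difference by 0.37 and every empty one by 0.73. It left 644 probes and 157 genes higher and 3184 and 680 lower, with 13.2% and 67.0% shared. The median shift raised every difference by 0.12. Averaging all probes of a gene and requiring signal on all 6 arrays moved no count past 1.5 times and no list median past the margin. Of 87 named genes past 2-fold, 0 changed sign under quantile, normexp or averaged probes. The median shift and the spike-in shift move every difference by a constant of less than 2-fold, so under them no sign of these genes could change. Under quantile, median shift, normexp, spike-in shift and averaged probes, 5, 4, 20, 12 and 6 of the 87 were within 2-fold.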

Other observations

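Genes of antigen presentation by MHC class II, chosen after their values were seen, were lower on day 5 in grafted tissue. CD74, the invariant chain, read 1.27, -0.67 and -1.13 on days 3, 5 and 7 in grafted and 1.85, -1.59 and -0.90 in empty defects. RLA-DR-ALPHA, the rabbit class II alpha chain, differed by -1.84 in grafted and -2.81 in empty tissue, and the loading factors RLA-DMA and RLA-DMB by -1.57 and -1.71 in grafted tissue. All 4 were lower on both day 5 arrays than on both day 3 arrays. VCAM1, an adhesion molecule of activated endothelium, differed by -1.66 in grafted and -2.02 in empty tissue. In grafted tissue it was back at -0.04 on day 7, from 0.08 on day 3, and its 5 probes differed by -1.75 to -0.51 between days 3 and 5.

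FECH, the last enzyme of haem synthesis, and TSPAN33, a tetraspanin of red cell precursors, also chosen after their values were seen, ran as TMOD1 did. FECH differed by 1.55 in grafted and -1.24 in empty tissue, and TSPAN33 by 2.17 and -1.35. The membrane peptidase gene ANPEP ran the other way, at -2.04 and 2.30, from a day 3 level of -1.09 with the graft and -4.54 without it.

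Some of the named genes have probes within a short distance of each other on oryCun2, and whether other genes lie between was not worked out. The probes of EPB42 and TMEM62 are 18.8 kb apart on chromosome 17, on opposite strands, and differed by 3.51 and 3.24. Those of OGN, OMD and ECM2 lie in this order on chromosome 1 at gaps of 30.9 kb and 64.4 kb, and differed by 2.36, 1.38 and 0.97. The probes of IL19 and IL10, on chromosome 16 and 61.5 kb apart, differed in opposite directions, by 2.69 and -1.66. MPO and EPX lie 46.8 kb apart on chromosome 19, at -2.30 and -3.73.

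Of 15503 probes in the comparison without a single gene name, 537 were at least 2-fold higher (3.46%) and 640 lower (4.13%). With the named genes in 3 groups of like size by brightness, 2.87% of the dimmest and 3.96% of the brightest were higher, and 2.60% and 1.29% were lower.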
